A study of Homo sapiens with 2 samples.

Results

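The tumour suppressor p53 is a transcription factor that binds DNA as a tetramer and switches on genes of cell cycle arrest, cell death, DNA repair and metabolism when a cell is stressed. MDM2 and MDM4 hold it in check, and MDM2 is itself a target, which closes a feedback loop. In gastric cancer, as in other epithelial tumours, the response of these targets is read as a sign of p53 activity, although many of them also answer to other factors.

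A list of 34 direct p53 target genes and regulators was followed in NUGC4, an established human gastric cancer cell line. Members were taken by gene symbol from the array's annotation, with the cluster of the highest mean where a gene has several, and no member had more than 1. Of the 34 members, 31 were among the 14526 named genes of the table, and 27 lay in the measured range (mean of both arrays at or above 6.05 on the log2 scale), which holds 9735 genes. PLK3, PMAIP1, TP53INP1 and SPATA18 lay below it. The expression of BTG2, BBC3 and FDXR is not analysed here, and they enter only the promoter counts.

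The samples were 2 cultures of NUGC4 cells, both given siRNA at 20 nmol/l by lipid transfection 24 h after seeding. The first received a negative control siRNA and the second a single siRNA against ANO5, anoctamin 5, a membrane protein of a family of chloride channels and scramblases. The labels record no other treatment and no genetic change. The series relates ANO5 to the cell cycle in gastric cancer, and differences here are taken as ANO5 siRNA minus control, from 1 array each. A difference due to the siRNA and a difference between these cultures or arrays therefore cannot be told apart, and no error, standard error or p-value can be given for any value below. The number of arrays limits the precision.

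The scale of the deposited values is not stated and was read as log2 from their range, so the folds rest on that reading. The median log2 signal was 7.69 on the control array and 7.68 on the ANO5 siRNA array. ANO5 read 6.83 in the control and 3.67 in the knockdown, below the measured range. Epithelial markers read as labelled, with 13 of 13 in the table in the measured range, among them EPCAM at 16.63 and 17.04. Few markers of other cell types reached that range: of those in the table, 1 of 5 fibroblast, 3 of 10 blood and 1 of 3 endothelial markers did. Their summed signal on the log2 scale, control first, was 8.41 and 8.33 for fibroblasts, 11.22 and 10.38 for blood and 7.63 and 7.92 for endothelium. Among the blood markers LYZ read highest (10.88 and 9.80), and PTPRC read 3.68 and 3.49, below the measured range. Both samples are cultures of 1 cell line, and the part of such markers in the results was not tested.

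Binding sites for p53 consist of a 10-base half-site and a copy of it, up to 13 bases apart. The consensus half-site is R R R C W W G Y Y Y, where R is A or G, W is A or T and Y is C or T. This pattern reads the same on both strands. It was matched in windows from 250 bases before to 50 bases after each RefSeq transcription start (GRCh38.p14). An exact half-site was in the windows of 6 of the 28 members with an entry (21.4%), against 8.06% of the 27305 genes with one and 7.50% of the measured genes. Over members in the table it was 5 of 25 (20.0%). A pair of half-sites with up to 2 mismatches in all was in the windows of 7 of the 28 (25%), or 6 of 25 of those in the table, against 9.53% of all genes. SESN1 and FDXR are the pair holders not shown. The sites below are from 5 of the 7 and show the pairs found, with the half-sites in capitals and the spacer in lower case. Sites outside these windows were not searched, so a member without a match here may hold a site elsewhere. DDB2 had the match with no mismatch (chr11:47214979-47214999, plus strand, starting 5 bases after the start site). The others had 2 mismatches. That of AEN (chr15:88621306-88621325, plus strand) began 34 bases before the start, that of FAS (chr10:88991309-88991328, plus strand) 122 before another start of the gene, that of MDM2 (chr12:68808923-68808942, plus strand) 94 before a start and that of CCNG1 (chr5:163437529-163437557, plus strand) 42 before one.
DDB2: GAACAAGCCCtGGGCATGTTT
AEN: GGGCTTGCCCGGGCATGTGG
FAS: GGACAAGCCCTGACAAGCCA
MDM2: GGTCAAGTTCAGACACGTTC
CCNG1: GAAAATGCCCccttctcgcGAGAAAGCCC

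SESN1 and PLK2, whose differences were among the largest of the members, each held an exact half-site before a start. The 250 bases before that start are shown to give its context, on the minus strand at chr6:109008989-109009238 for SESN1 and at chr5:58460087-58460336 for PLK2, with the half-site in capitals. It began 49 bases before the start in SESN1 and 132 before it in PLK2. The SESN1 start is 1 of several of that gene. ZMAT3 and TIGAR, with log2 differences of 2.30 and 1.88 also among the largest, held no exact half-site in their windows.
SESN1: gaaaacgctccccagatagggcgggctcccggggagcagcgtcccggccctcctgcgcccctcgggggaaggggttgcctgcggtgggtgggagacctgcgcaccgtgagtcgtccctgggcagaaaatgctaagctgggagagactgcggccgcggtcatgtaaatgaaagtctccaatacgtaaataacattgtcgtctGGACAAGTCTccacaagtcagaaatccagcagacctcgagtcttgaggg
PLK2: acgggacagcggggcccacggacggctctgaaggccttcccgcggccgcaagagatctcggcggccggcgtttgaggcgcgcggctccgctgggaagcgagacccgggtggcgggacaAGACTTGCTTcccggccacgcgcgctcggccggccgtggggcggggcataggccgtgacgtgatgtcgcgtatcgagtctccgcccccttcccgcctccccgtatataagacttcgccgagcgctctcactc

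These letters were read from the reference and no binding was measured. With ANO5 siRNA minus control, the 5 members in the table with an exact half-site had log2 differences above 0. These were 1.98 for SESN1, 1.92 for PLK2 and 1.05 for FAS, but only 0.47 for AEN and 0.16 for DDB2. Members with a pair of half-sites went in both directions. MDM2 (-0.12) and CCNG1 (-0.66) held a pair with 2 mismatches and no exact half-site, and PLK2 held no such pair. Of all 31 members in the table, 23 were above 0, and a link between half-site and direction was not tested.

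As a list the p53 targets were mostly higher with ANO5 siRNA. The members were chosen with earlier results of these data known, so their direction is not independent evidence. A fixed size of 1.5-fold (0.58 on the log2 scale) was used to count genes and is not a test. For scale, the differences of 105 olfactory receptor genes, which most tissues do not express, had an SD of 0.42. Of the 27 measured members, 16 were higher by 1.5-fold or more, where 23.2% of all measured genes were, and 4 were lower, where 20.1% were. These are 59.3% and 14.8% of the members. The remaining 7 lay within 1.5-fold. At 2-fold or more, 10 members were higher (37.0% against 11.2% of all measured genes) and 1 was lower (3.70% against 11.3%). The median log2 difference of the measured members was 0.66 (1.58-fold), with a middle range from 0.08 to 1.33 and an SD over members of 0.94, against a median of 0.07 and an SD of 0.94 over all measured genes. These SDs describe the spread between genes. Over the 31 members in the table, including those below the range, 23 differences were above 0, 7 below 0 and 1 was 0, with a median of 0.66.

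**Figure D1:**
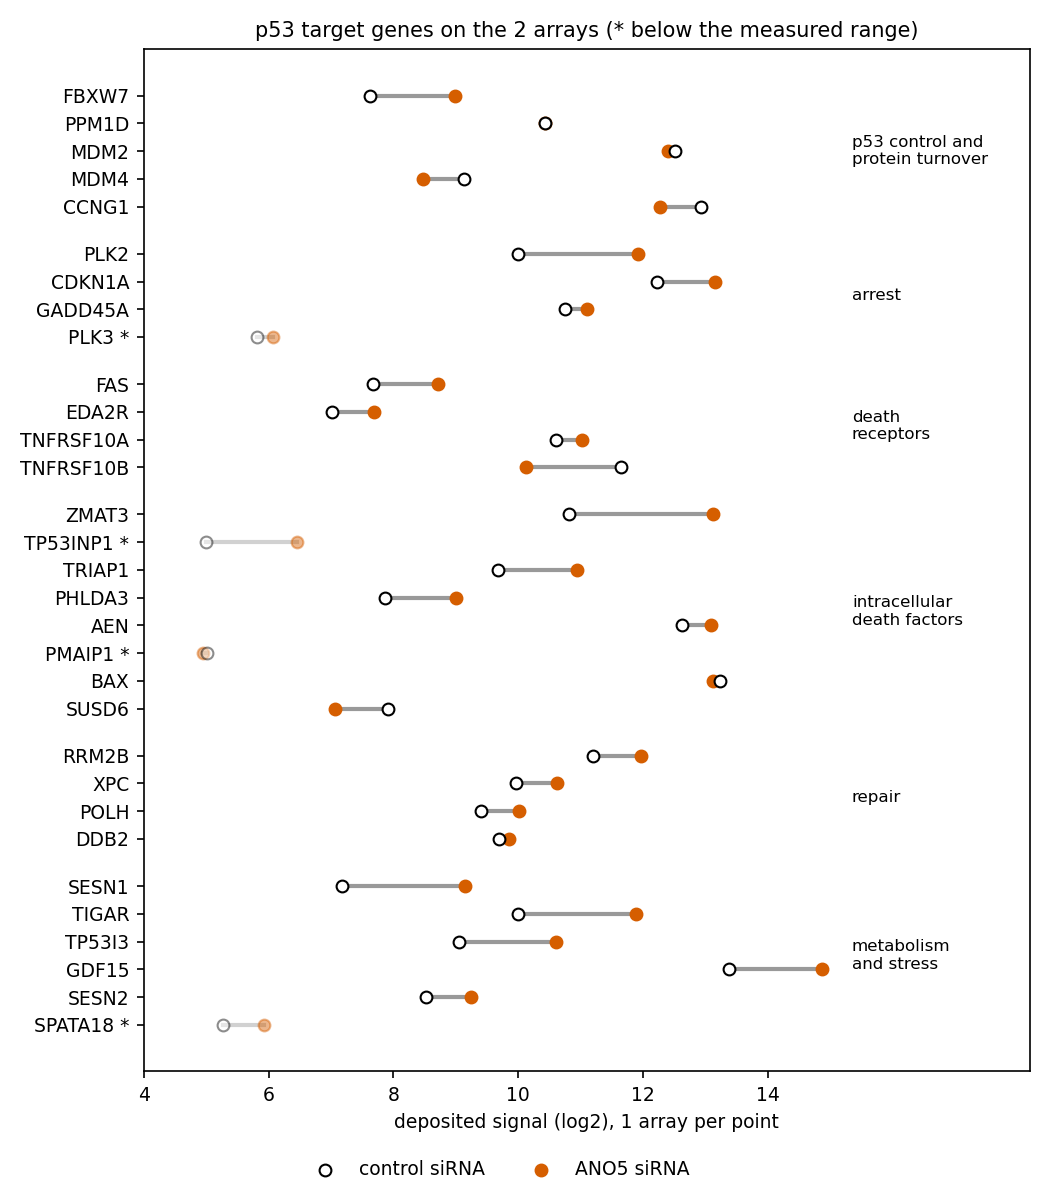
Deposited log2 signal (x axis) of the 31 p53 target genes in the table, with 1 open point for the control siRNA array and 1 filled point for the ANO5 siRNA array per gene, grouped by function. Genes with an asterisk lie below the measured range. The filled point lies to the right for every member of the arrest, repair and metabolism groups. It lies to the left for 7 members. Of these, 4 were lower by 1.5-fold or more: TNFRSF10B (11.64 to 10.13), SUSD6 (7.92 to 7.07), CCNG1 (12.93 to 12.27) and MDM4 (9.13 to 8.48).

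**Figure D2:**
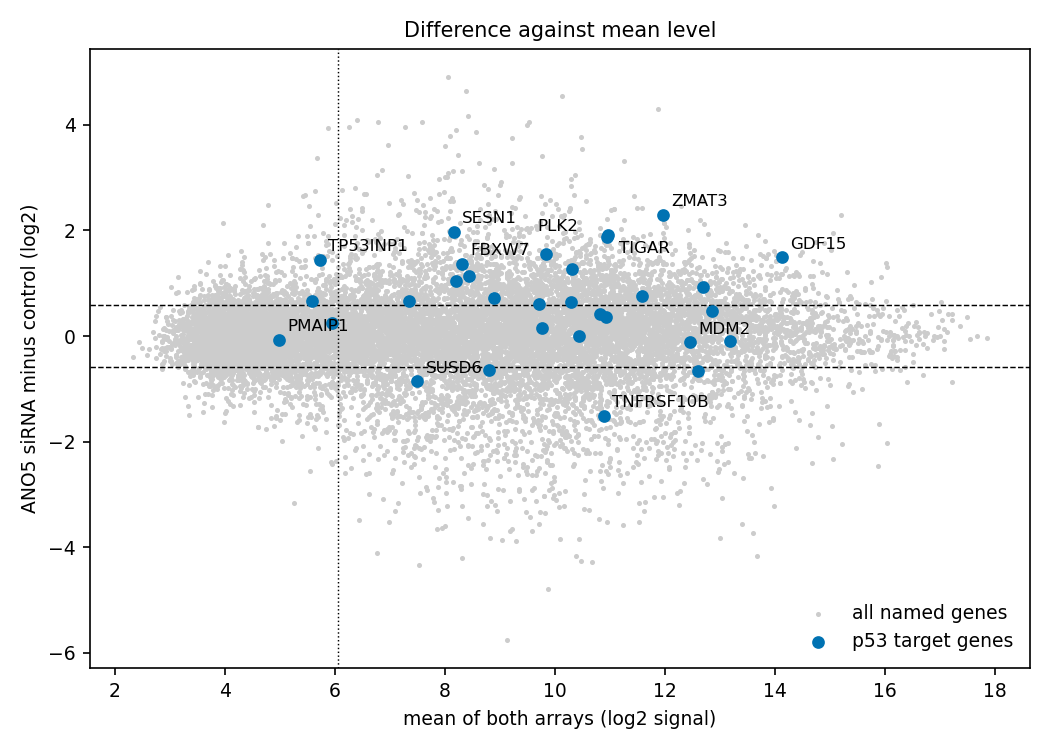
ANO5 siRNA minus control (y axis, log2) against the mean of both arrays (x axis, log2 signal) for all 14526 named genes (grey) and the 31 p53 target genes (blue), with dashed lines at 1.5-fold and a dotted line at the lower end of the measured range (6.05). Members above the upper line span mean levels from SPATA18 (5.59, below the measured range) to GDF15 (14.13).

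By function, the genes that act on metabolism and on oxidative and nutrient stress showed the highest median of the functional groups. All 5 measured members were higher by at least 1.5-fold (23.2% of all measured genes) and 4 of them by at least 2-fold (11.2% of all), with a median difference of 1.56 (2.95-fold). SESN1, a sestrin, which restrains the growth kinase complex mTORC1, read 7.17 on the control array and 9.15 on the ANO5 siRNA array. This was 3.94-fold higher, and 163 of the 9735 measured genes, itself included, had a difference as high or higher. Its relative SESN2, which senses leucine, went from 8.52 to 9.25 (1.66-fold higher). TIGAR, an enzyme that lowers fructose-2,6-bisphosphate and turns glucose towards the pentose phosphate pathway, went from 10.00 to 11.88 (3.68-fold higher). Sestrins and TIGAR both limit reactive oxygen in cells. TP53I3, a quinone oxidoreductase, went from 9.05 to 10.61 (2.95-fold higher). GDF15, a secreted cytokine of the TGF-beta family that many stresses induce, went from 13.38 to 14.87 (2.81-fold higher). SPATA18, a factor of mitochondrial quality control, went from 5.26 to 5.92, below the measured range. Its control value lay under 5.45, the 90th percentile of the olfactory receptor genes. With values raised to 5.45 its difference of 0.66 became 0.47, and with 32 added on the linear scale 0.40, both under 1.5-fold.

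Of the 3 measured arrest genes, CDKN1A and PLK2 were higher by 1.5-fold or more, as were 23.2% of all measured genes. CDKN1A encodes p21, the inhibitor of cyclin-dependent kinases through which p53 halts the cycle, and read 12.22 in the control and 13.15 with ANO5 siRNA (1.91-fold higher). PLK2, a polo-like kinase of stress and centriole duplication, went from 10.00 to 11.92 (3.78-fold higher), a difference that 183 of the measured genes reached or passed. GADD45A, a stress protein that acts at the G2 checkpoint, went from 10.75 to 11.11, a difference of 0.36. PLK3, a stress-activated relative of PLK2, read 5.82 and 6.07 and fell short of the measured range. Over the 3 measured arrest genes the median difference was 0.93, and with PLK3 it was 0.65.

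The repair genes were higher by less. XPC, which finds distorted DNA in nucleotide excision repair, went from 9.97 to 10.62 (1.57-fold higher). RRM2B, the p53-inducible small subunit of ribonucleotide reductase, went from 11.20 to 11.96 (1.69-fold higher), and POLH, a polymerase that copies past ultraviolet damage, from 9.40 to 10.01 (1.53-fold higher). DDB2, which binds ultraviolet lesions, read 9.69 and 9.85. Thus 3 of 4 members were higher by 1.5-fold (23.2% of all measured genes) and 0 of 4 by 2-fold (11.2% of all, so that 0 of 4 is near that share), with a median of 0.63. After loess scaling on the mean level this median was 0.52, under 1.5-fold, and XPC (0.53) and POLH (0.51) were no longer past it.

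Genes of cell death held members of both directions. Among 10 measured death genes, 5 passed 1.5-fold upwards (50%, against 23.2% of all measured genes) and 2 downwards (20%, near the 20.1% of all), and the median was 0.57. The 5 include TRIAP1, which promotes survival rather than death. Among the receptors at the cell surface, FAS, the receptor of the FAS ligand, went from 7.67 to 8.72 (2.07-fold higher). EDA2R, a receptor of ectodysplasin, went from 7.02 to 7.68 (1.58-fold higher), and with 32 added on the linear scale its difference of 0.66 became 0.55, under 1.5-fold. TNFRSF10A and TNFRSF10B encode the TRAIL receptors DR4 and DR5, which trigger caspase 8. TNFRSF10A read 10.60 and 11.02, a difference of 0.42. TNFRSF10B went the other way, from 11.64 to 10.13 (2.85-fold lower), the lowest difference of the measured members.

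Inside the cell, ZMAT3, an RNA-binding zinc finger protein, had the largest positive difference of the members. It went from 10.82 to 13.12 (4.92-fold higher), and 99 of the 9735 measured genes, itself included, had a difference as high or higher. TRIAP1, which promotes survival and carries lipid within mitochondria, went from 9.67 to 10.95 (2.43-fold higher). PHLDA3, which keeps the kinase AKT from the membrane, went from 7.87 to 9.0 (2.19-fold higher). AEN, a nuclease of apoptotic cells, read 12.62 and 13.09, a difference of 0.47. BAX, which permeabilises the outer mitochondrial membrane, read 13.23 and 13.13. SUSD6, a membrane protein, went from 7.92 to 7.07 (1.80-fold lower). The BH3-only protein gene PMAIP1 (NOXA) read 5.01 and 4.94, both below the 5.45 that marks the 90th percentile of the olfactory receptor genes, which most tissues do not express. TP53INP1, a nuclear protein of the stress response and autophagy, went from 5.00 to 6.45. Its control value also lay under that level. With values raised to 5.45 its difference of 1.45 became 0.997, so that its fold is not well set.

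The genes that restrain p53 or turn over proteins had a median of -0.12. MDM2, the ubiquitin ligase that degrades p53, read 12.52 and 12.40. PPM1D, the phosphatase WIP1 that reverses damage signalling, read 10.43 on both arrays. MDM4, which binds p53 and blocks its activity, went from 9.13 to 8.48 (1.57-fold lower). CCNG1, cyclin G1, which works with a phosphatase to activate MDM2, went from 12.93 to 12.27 (1.58-fold lower). FBXW7, the substrate receptor of a ubiquitin ligase for cyclin E and MYC, read 7.62 and 8.99 (2.58-fold higher). So 1 of 5 was higher, near the 23.2% of all measured genes, and 2 were lower (20.1% of all).

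**Figure D3:**
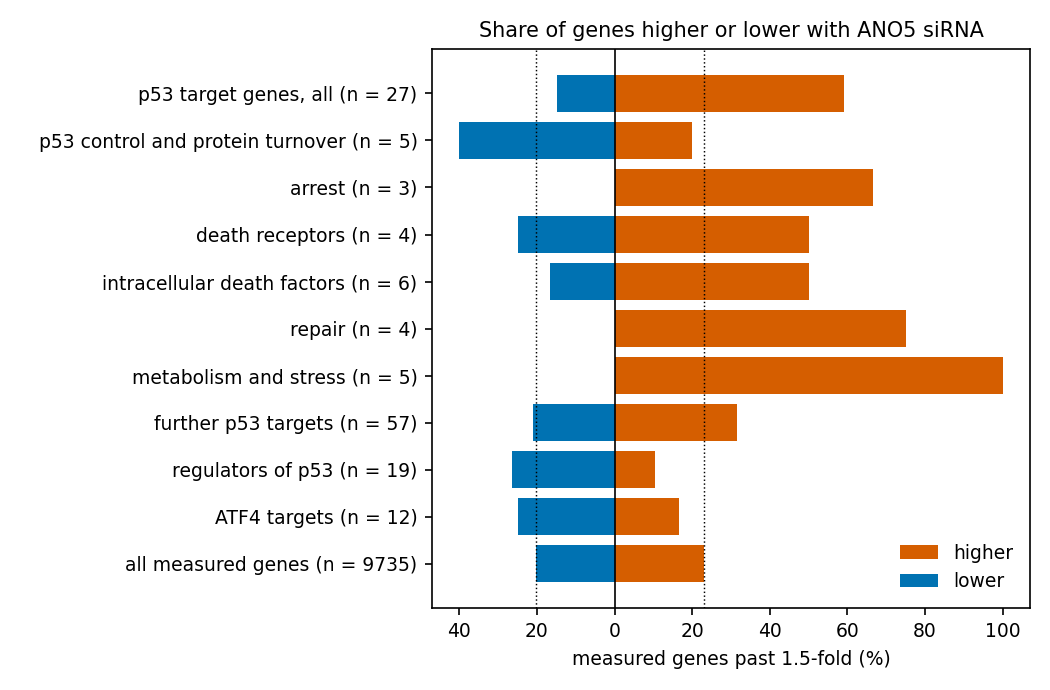
Percent of measured genes that were higher (orange, to the right) or lower (blue, to the left) by 1.5-fold or more with ANO5 siRNA, for the p53 target genes, their 6 functional groups, 3 other lists and all measured genes, with n for each. Dotted lines mark all measured genes (23.2% higher, 20.1% lower). The list of regulators of p53 includes ATF4. The metabolism bar reaches 5 of 5 genes, and the group of p53 control and protein turnover has more lower (2) than higher (1) genes.

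Related genes differed from each other within families. SESN1 had a difference of 1.98 and SESN2 of 0.73. PLK2 had 1.92 and PLK3 0.25, the latter below the measured range. MDM2 had -0.12 and MDM4 -0.65. Of the TRAIL receptors, TNFRSF10A had 0.42 and TNFRSF10B -1.51, and TNFRSF10D, a decoy receptor that binds TRAIL without passing on the death signal and also a p53 target, went from 13.15 to 11.14, a difference of -2.01 (4.03-fold lower). With 1 array per group the differences between relatives have no test.

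**Figure D4:**
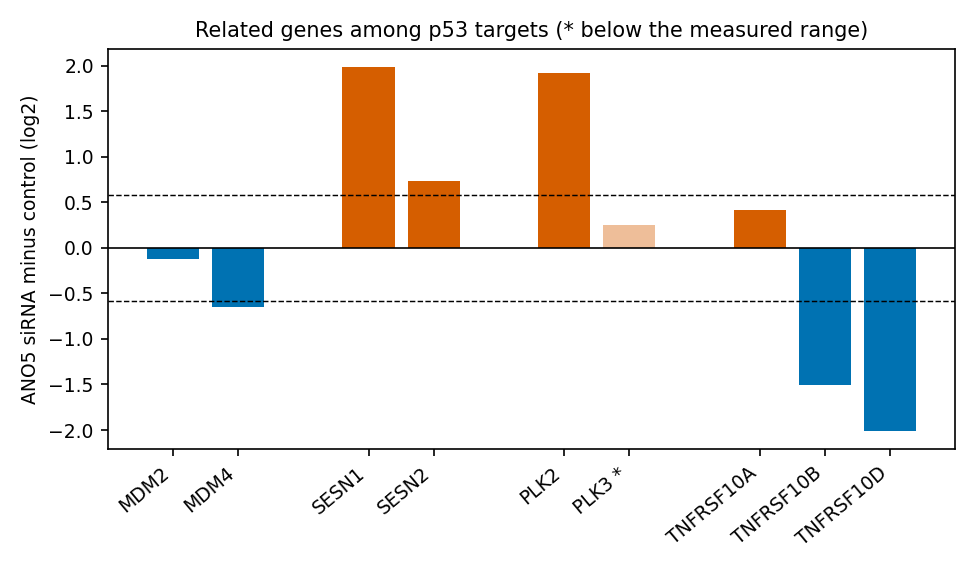
ANO5 siRNA minus control (y axis, log2) for related genes among the p53 targets, with orange bars above and blue bars below 0 and dashed lines at 1.5-fold; PLK3 lies below the measured range. Both sestrins lie above the upper line (1.98 and 0.73), and TNFRSF10B (-1.51) and the decoy TNFRSF10D (-2.01) lie below the lower one.

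Other p53 targets were taken from a further list of 73 genes, 62 of them in the table and 57 measured. Past 1.5-fold, 18 of them were higher and 12 lower (31.6% and 21.1%, against 23.2% and 20.1% of all measured genes), with a median of 0.26 and an SD over genes of 1.19. The highest were GRHL3, an epithelial transcription factor (6.20 to 9.80, 12.1-fold higher), and ACER2, a ceramidase of the Golgi (6.09 to 8.80, 6.54-fold higher). TGFA, a ligand of the EGF receptor, was 5.10-fold higher (6.36 to 8.71), and CPEB4, which binds the tails of mRNAs, 4.26-fold higher (8.61 to 10.70). The lowest were E2F7, a repressor of E2F target genes (9.14 to 6.22, 7.57-fold lower), and PTP4A1, a phosphatase (17.10 to 14.64, 5.50-fold lower). They were followed by the decoy receptor TNFRSF10D and by DRAM1, a lysosomal protein of autophagy (10.68 to 8.96, 3.29-fold lower).

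Regulators that act on p53 from outside the list had a median of -0.17. Past 1.5-fold, 2 of the 19 measured regulators were higher (10.5%, against 23.2% of all measured genes) and 5 lower (26.3%, near the 20.1% of all). This list also holds ATF4, a stress response factor described below, which is among the 5 lower genes. KAT5, an acetyltransferase that modifies p53, was 1.92-fold higher (9.36 to 10.30) and HIPK2, a kinase that phosphorylates it, 1.56-fold higher (12.76 to 13.40). PRKDC, the catalytic subunit of the DNA-dependent protein kinase, was 3.84-fold lower (12.26 to 10.32), and CHEK1, the checkpoint kinase of the replication stress response, 2.95-fold lower (12.85 to 11.29).

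GDF15, SESN2 and TNFRSF10B can also be induced by ATF4, the factor of the integrated stress response, whose own signal went from 11.29 to 9.74 (2.93-fold lower). Past 1.5-fold, 2 of 12 measured ATF4 targets were higher and 3 lower, with a median of -0.09. These are 16.7% and 25%, near the 23.2% and 20.1% of all measured genes. SLC7A11, a cystine transporter, was 6.28-fold higher (10.11 to 12.76) and CEBPG, a partner of ATF4, 1.88-fold higher (10.89 to 11.80). PHGDH (12.48 to 10.37, 4.32-fold lower) and SHMT2 (15.25 to 14.23, 2.03-fold lower) act in serine and glycine synthesis. What part ATF4 has in the members' differences was not tested.

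p21 also lowers cell cycle genes through the DREAM repressor complex. All 33 measured genes of a list of such targets were lower by at least 2-fold, where 11.3% of all measured genes were. The median of the list was -2.30 (4.92-fold), against 0.07 over all measured genes. That cell cycle genes were lower was known when this list was chosen, so its direction is not independent evidence.

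**Figure D5:**
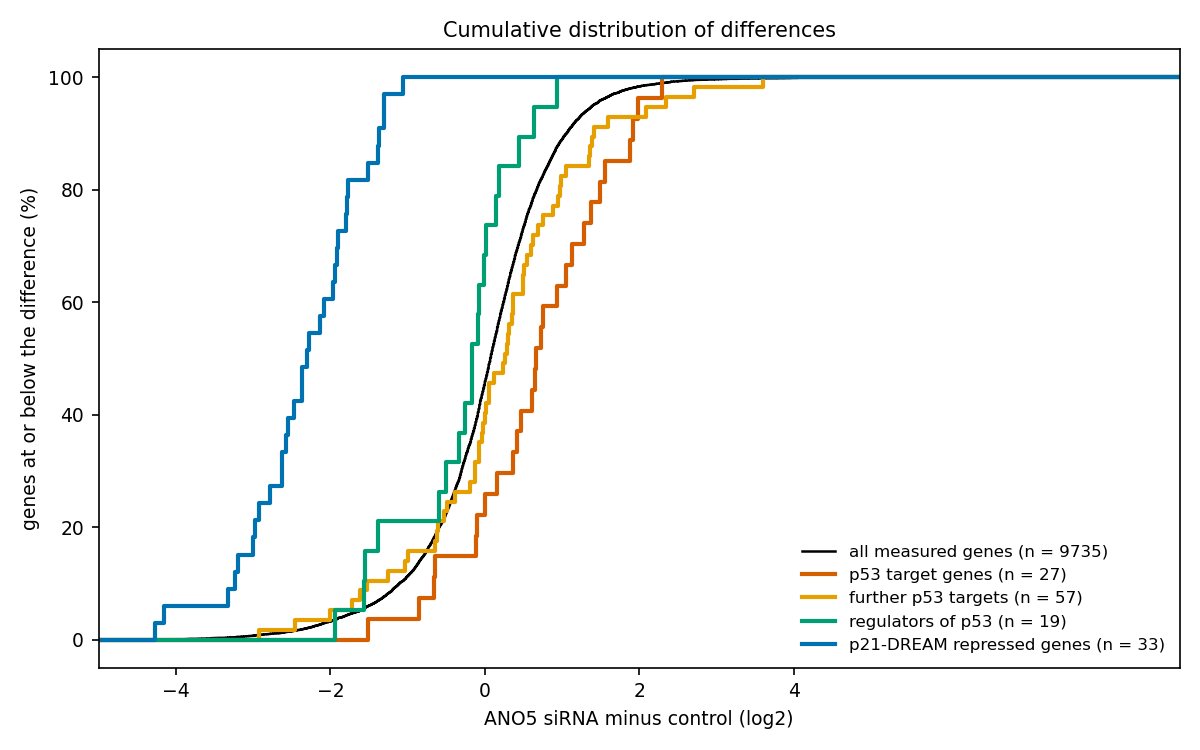
Cumulative percent of genes (y axis) at or below a given ANO5 siRNA minus control difference (x axis, log2), for all measured genes and 4 gene lists, with n for each. The median is 0.66 for the p53 target genes, 0.26 for the further targets and 0.07 for all measured genes, and the p21-DREAM curve lies wholly below 0 (median -2.30).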

How the data were processed

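RNA of 2 NUGC4 cultures was measured on 1 array each. The authors deposited 1 value per array for 17345 transcript clusters, read here as log2 signal because the values run from 2.13 to 18.15. No source used here states the scale. Agilent Feature Extraction 12.0.3.1 is the tool in the submitters' processing notes, although the cluster identifiers have another maker's form, so how the values were made is uncertain. The sources used here do not give the background correction, probe summary, normalization or build of the clusters. No detection call was used, so a fold against a value near background may be a lower bound.

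Of the clusters, 14544 had 1 gene symbol in the platform's annotation, 0 had several and 2801 none. Values were used as deposited, and the measured range began at the 33rd percentile of the mean of both arrays over named genes. Genes were counted past 1.5-fold and 2-fold, with the shares over all measured genes beside the counts. With 1 array per group no test was made. The code for counts and medians was checked on simulated data with known shifts.

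Every member in the table is named. From the further targets the rule takes the 4 highest and 4 lowest past 1.5-fold in the measured range, and from the regulators and ATF4 targets 2 each way. For the p21-DREAM list only the count and median are given. ATF4 itself was named outside this rule. The members and lists were chosen with earlier results of these data known. The gene of p53 itself is not in the list and is not analysed here. Promoter sequences are those of RefSeq (GRCh38.p14), matched by symbol, and 28 of 34 members had an entry. The planned identity between related proteins was not computed. Python 3.11.15, numpy 2.4.6, pandas 2.3.3 and statsmodels 0.14.6 were used.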

Additional observations from a re-analysis of the deposited data

How the results depend on the processing

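No paired analysis was possible because each group has 1 array and the labels carry no replicate numbers, and for the same reason no array could be left out. Alternatives were median centring, a common 75th percentile, quantile and loess scaling (span 0.4), the median over clusters, 32 added on the linear scale, values raised to the olfactory receptor level, no filter, a filter at the 50th percentile or on the control array alone, the mean, 2-fold in place of 1.5-fold, and a pair of half-sites. The median of the p53 target genes ran from 0.62 to 0.73 and that of the metabolism group from 1.46 to 1.57. The median of all measured genes moved from 0.07 to -0.0062 after loess. Loess also moved the repair median to 0.52 and the count of higher p53 regulators from 2 to 1. The filter at the 50th percentile gave 3 lower regulators in place of 5 and a median of 1.13 for intracellular death factors, since fewer genes pass it. Without a filter the arrest median was 0.65, as PLK3 enters. The count of higher members was 14 after loess and 15 with 32 added, against 16. Of the 9735 measured genes, 1938 were higher after loess and 2098 with 32 added, against 2257. At 2-fold 10 members were higher and 1 lower. ANO5 differed by -1.70 with 32 added and by -1.38 with low values raised, against -3.16. Of 217 values of single members, 209 stayed on their side of 1.5-fold and moved by no more than 0.2 on the log2 scale, 3 moved by more and 5 fell under 1.5-fold (XPC and POLH after loess, EDA2R and SPATA18 with 32 added, SPATA18 also with low values raised), and none changed sign past the threshold. The median over clusters could move no listed gene, since each has 1 cluster. Median centring and the common 75th percentile shift all genes by the same small amount. Raising low values leaves genes above that level unchanged. The 209 therefore include values that could hardly move.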
